A study of Ovis aries with 14 samples.

Results

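The mitochondrial genome carries 7 genes for subunits of respiratory complex I, named ND1, ND2, ND3, ND4, ND4L, ND5 and ND6, and their RNA was measured in the perirenal fat of suckling lambs. They are 7 of the 27054 gene IDs counted in each lamb. The files give Ensembl IDs without symbols, so the genes were taken by ID: ENSOARG00000000006 (ND1), ENSOARG00000000010 (ND2), ENSOARG00000000025 (ND3), ENSOARG00000000027 (ND4L), ENSOARG00000000028 (ND4), ENSOARG00000000032 (ND5) and ENSOARG00000000033 (ND6). The names rest on order and length. The deposited lengths of the 37 IDs at the head of the tables equal, in the same order, those of the 37 mitochondrial genes in RefSeq's table for the sheep assembly ARS-UI_Ramb_v3.0. Each of the 7 has a length that no other mitochondrial gene there has: 955 bases for ND1, 1042 for ND2, 346 for ND3, 297 for ND4L, 1378 for ND4, 1821 for ND5 and 528 for ND6. The counts were made on the build Oar_v3.1, per the submitters' processing notes, and no coordinates are given because the builds differ.

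The 14 lambs were males of the breeds Assaf (8 lambs) and Churra (6 lambs), raised on milk replacer after a few hours of suckling from the dam, and killed at a common market weight. Live weight was 10.3 ± 0.612 kg in Assaf and 10.3 ± 0.816 kg in Churra (SD, n = 8 and n = 6). The labelled slaughter day ran from 17 to 23 in Assaf and from 21 to 35 in Churra, so breed and day were partly confounded, and the lowest label lies under the youngest age that the design text states. Each lamb gave 1 library of total RNA made with a strand-marking kit, with 14152614 to 24370921 counts. No batch is labelled, and markers of fat or of other tissues could not be checked because no table pairs the nuclear gene IDs with symbols.

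Complex I passes electrons from NADH to ubiquinone and pumps protons across the inner mitochondrial membrane. Its mitochondrially encoded subunits build the core of the membrane arm, while the remaining subunits come from nuclear genes. The mitochondrial genome is transcribed from both strands as long precursors that are cut, mostly at tRNAs, into single RNAs. ND6 is the only mRNA gene on its strand, and ND4L and ND4 stay together on 1 mRNA. Perirenal fat of newborn lambs is known as a brown, heat-producing depot that turns into white fat in the weeks after birth.

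The 7 mRNAs together took between 5.09% of all counts in Assaf 3 (exact Clopper-Pearson 95% interval 5.08% to 5.11%) and 14.0% in Assaf 7, with a median of 8.85% over the 14 lambs. Such intervals cover counting error only, and the lambs differed by far more than that. By counts, ND4 ranked 2 among all genes of the series. Levels of different genes are compared here as TPM, which divides the count by the effective length, that is the number of positions in a gene where a fragment can start, and scales the result to the same total in each lamb. Mean TPM placed ND4 at rank 6, ND1 at 8, ND2 at 10, ND3 at 12, ND5 at 15 and ND4L at 17 among all genes, and ND6 at 136.

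The order of the levels was nearly the same in every lamb: ND4, then ND1, ND2, ND3, ND5 and ND4L, then ND6. ND4 was the highest in 14 of 14 lambs, 1.49-fold above ND1 (log2 ratio 0.58 ± 0.14 SD, n = 14). ND1 exceeded ND2 1.16-fold (0.21 ± 0.19), in 13 of 14 lambs. ND2 exceeded ND3 1.41-fold (0.49 ± 0.24) and ND3 exceeded ND5 1.55-fold (0.63 ± 0.33), both in 14 of 14 lambs. Each of these steps was larger than the spread between lambs in an exact sign-flip permutation test, two-sided and adjusted over the 6 neighbouring pairs, with p = 0.000183 for ND4 over ND1, ND2 over ND3 and ND3 over ND5, and p = 0.00117 for ND1 over ND2. ND5 and ND4L did not differ beyond the spread, as ND5 was higher in 7 of 14 lambs (log2 ratio 0.08 ± 0.27, exact permutation adjusted p = 0.318). ND6 lay 7.49-fold below ND4L (log2 ratio 2.91 ± 0.35, 14 of 14 lambs, exact permutation adjusted p = 0.000183). The place of the short genes depends on the length used. With counts divided by the annotated length instead, ND3 and ND5 no longer differed beyond the spread (log2 ratio of ND3 over ND5 -0.14, exact permutation adjusted p = 0.152) and ND5 exceeded ND4L (log2 ratio 1.06, exact permutation adjusted p = 0.000183).

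**Figure D1:**
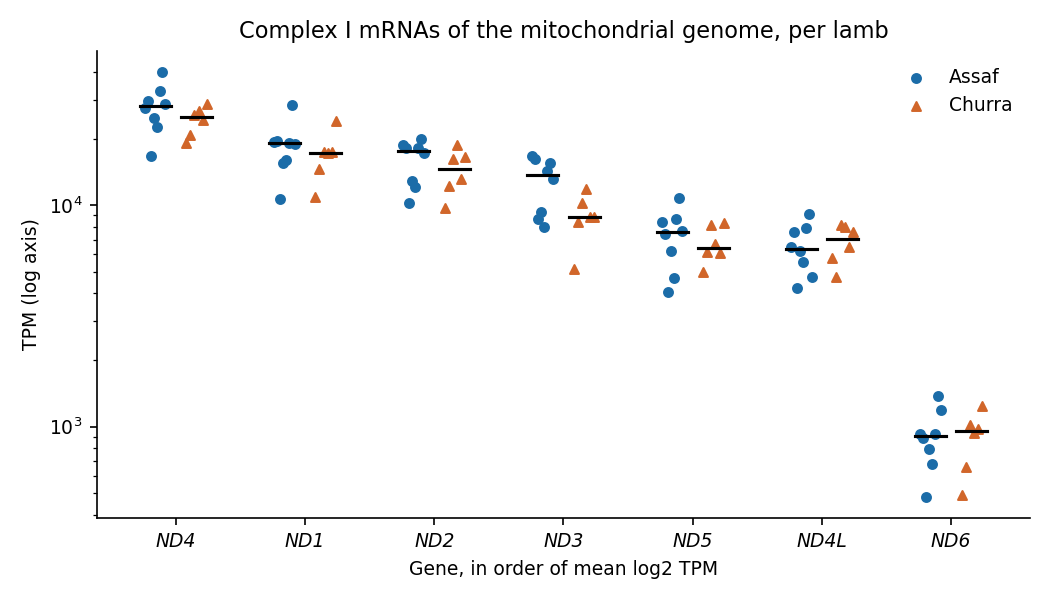
TPM (log axis) of the 7 complex I mRNAs in each lamb, in order of mean level, with Assaf lambs as circles, Churra lambs as triangles and black lines for breed medians. ND4 is the highest and ND6 the lowest mRNA in all 14 lambs, and the breeds overlap in every gene.

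ND2, ND4 and ND5 are the antiporter-like subunits of the proton-pumping arm. ND4 ranged from 16778 TPM through a median of 28207 to 40032 TPM in Assaf, and from 19042 through 25019 to 28565 TPM in Churra. The Churra lambs lay inside the Assaf range, and 4 of 8 Assaf lambs were above the highest Churra lamb. ND2 ran from 10190 through 17613 to 19890 TPM in Assaf and from 9719 through 14642 to 18715 TPM in Churra. ND5, the longest of the genes, had 4058, 7549 and 10819 TPM in Assaf and 5014, 6418 and 8281 TPM in Churra as lowest, median and highest values. For these 3 genes the lowest Assaf value came from Assaf 3 and the highest from Assaf 7, both with nearly the same slaughter day (23 and 21).

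ND1 and ND3 belong to the part of the membrane arm that meets the quinone-binding arm. ND1 ranged from 10662 through 19077 to 28275 TPM in Assaf and from 10876 through 17275 to 24100 TPM in Churra. The breeds overlapped over almost their whole range. ND3 had 8009, 13709 and 16705 TPM in Assaf and 5157, 8851 and 11872 TPM in Churra as lowest, median and highest values. Here 5 of 8 Assaf lambs exceeded every Churra lamb and 6 of 6 Churra lambs lay under the Assaf median, while 3 Assaf lambs fell within the Churra range. ND3 was also the most variable of the 7 between lambs, with a 3.24-fold range and a coefficient of variation of 31.9%, against 2.05-fold for ND2 and 22.3% for ND4, the smallest of each.

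ND6, a small membrane subunit near ND3 and ND4L, had 482.4 TPM, 906.4 TPM and 1380 TPM in Assaf as lowest, median and highest values, and 492.6 TPM, 956.1 TPM and 1241 TPM in Churra. Its level was on average 1.06% of the summed TPM of the other 6 genes, from 0.883% to 1.32%. The strand setting of the authors' counting is not given in the sources used here. Without it, reads from ND6 and from the opposite strand of the same place cannot be told apart. In RefSeq's table ND6 overlaps its neighbour ND5, and ND4L overlaps ND4. ND4L, another small subunit between the pump modules, ranged from 4218 through 6349 to 9112 TPM in Assaf and from 4727 through 7028 to 8152 TPM in Churra.

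ND4L was the only 1 of the 7 whose count RSEM reported with a large uncertainty. RSEM, the counting tool named in the processing notes, splits reads that align to several genes and reports a posterior standard deviation of each count. For the other 6 genes that deviation was at most 0.03 counts, and their counts were whole numbers. For ND4L it was 572 to 1229 counts, or 3.19% to 6.36% of the ND4L count. An unnamed gene of 294 bases, ENSOARG00000005798, had exactly the deviation of ND4L in all 14 lambs. The counts of the pair summed to a whole number in each, so the pair shared reads. The summed counts of the pair are called the pool here, and how many of them fit both genes is not given. ND4L received between 25.8% (Assaf 8) and 43.4% (Churra 3) of that pool, with 32.4 ± 2.82% in Assaf and 36.3 ± 4.67% in Churra (SD). How many of the pooled reads came from mitochondrial RNA cannot be told apart in these files. The median lamb had 25.1% of the TPM of ND4, with which ND4L shares an mRNA, in ND4L alone, and 76.9% in both genes of the pool together. With the pool summed, ND4L would have 19641 ± 3686 TPM, above the mean of ND1 (17783 ± 4619 TPM). These comparisons with ND4 and ND1 depend on the length used. The effective length of ND4L was only 133 to 142 of 297 bases, while that of ND4 was 1212 to 1222 of 1378 bases.

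**Figure D2:**
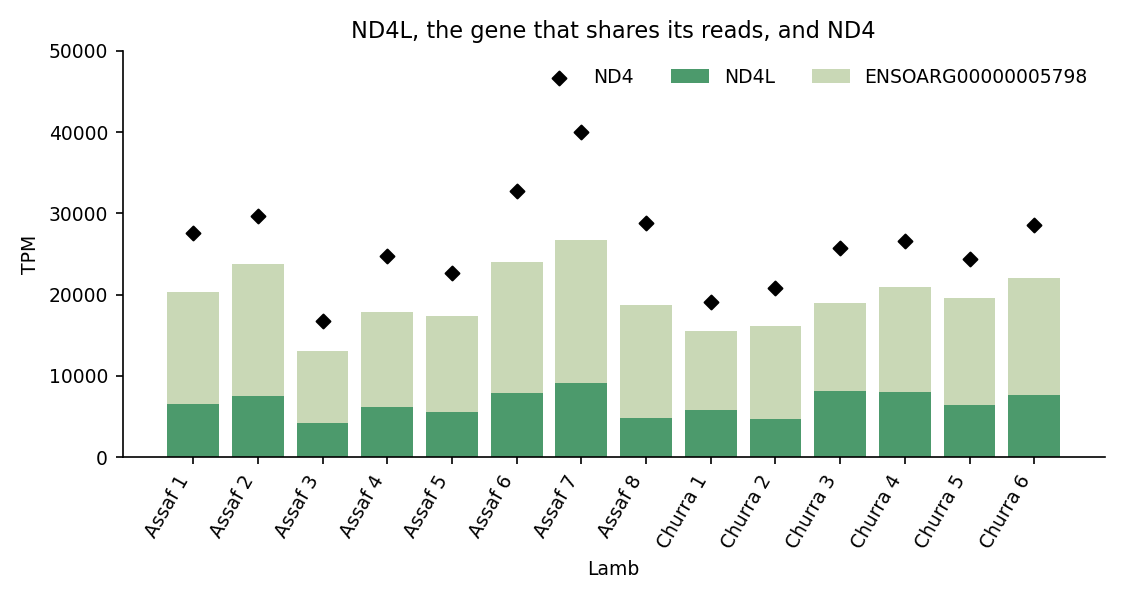
TPM of ND4L (dark bars), of ENSOARG00000005798, which shares reads with it (light bars, stacked), and of ND4 (diamonds) in each lamb. The stacked pair reaches 64.9% to 81.7% of ND4, and ND4L alone 16.5% to 31.7%.

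Lambs high in 1 of these mRNAs were high in the others. Across the 14 lambs, log2 CPM (counts relative to the TMM-scaled library size, with no length) of the 21 gene pairs had Pearson's r of 0.774 to 0.980 with a median of 0.941, given here as a description since all values share the same libraries and scaling. The lowest r was that of ND3 with ND4L, and the highest that of ND1 with ND4. In Assaf 7 all 7 genes lay above their mean over the lambs, by 1.28 on the log2 scale on average. In Assaf 3 and Churra 1 all 7 lay below it, with mean deviations of -0.98 and -0.97. In bulk tissue, fewer mitochondria-rich cells and less mitochondrial RNA per cell cannot be told apart.

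The 6 other mitochondrial mRNAs, which encode cytochrome b and subunits of complex IV and ATP synthase, went up and down with the complex I mRNAs. All 13 together with the mitochondrial rRNAs made up 16.5% to 45.7% of counts, again lowest in Assaf 3 and highest in Assaf 7. The complex I genes were a fairly steady part of the counts of the 13 mRNAs, at 32.3 ± 2.15% in Assaf and 30.6 ± 1.83% in Churra (SD). Per length they were the lower group. Mean TPM of the other 6 ran from 21365 (COX2) to 64675 (ATP8). Of the complex I genes only ND4, at 26295 ± 5864 TPM (SD, n = 14), lay within that range. The top place of ATP8 depends on the length used. Its effective length was only 48.0 to 54.6 of 201 bases, and its mean count of 71029 was the lowest of the 6. The 22 mitochondrial tRNAs had 0 counts in all lambs. They are 60 to 75 bases long, and even ATP8, with 201 bases, had an effective length of only 48.0 to 54.6. The 0 counts therefore do not show that the tRNAs were absent.

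Whether the breeds differed was asked with edgeR's quasi-likelihood test over all 13197 genes that passed the low-count filter, which included all 7. None of the 7 passed an adjusted p of 0.05 (0 of 7, against 0.197% of all genes tested, 0.0758% being lower in Churra), and 0 of 7 passed in DESeq2 (against 2.81%). Fitted values of all 7 were below 0, that is lower in Churra, with a median of -0.29, and a value below 0 was found in 51.6% of all genes, whose median was -0.01. Before adjustment, 1 of 7 had an edgeR p below 0.05, against 13.4% of all genes and 6.64% for those lower in Churra, and 1 of 7 had one in DESeq2, against 14.3%. With 7 genes, 1 call is close to that background. The gene was ND3. It had 2963 ± 1316 CPM in Assaf and 1843 ± 629 CPM in Churra (SD), a log2 fold change of -0.68 ± 0.31 (SE, 95% interval -1.35 to -0.02, unadjusted p = 0.0443, edgeR adjusted p = 0.358). No gene of the 7 parted the breeds without overlap in CPM, against 0.546% of all genes tested.

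The other intervals reach from clear decreases to increases, so these data neither show nor exclude changes of that size. ND4 had a log2 fold change of -0.38 ± 0.31 (SE, 95% interval -1.03 to 0.27, edgeR adjusted p = 0.652). ND1, ND2 and ND5 had -0.29 each, with edgeR adjusted p between 0.742 and 0.774. ND6 had -0.21 ± 0.36 (edgeR adjusted p = 0.873) and ND4L -0.11 ± 0.29 (edgeR adjusted p = 0.928). With slaughter day in the fit the directions of 5 of the 7 turned. ND1, ND2, ND4L, ND5 and ND6 then had values between 0.10 and 0.35, with a median of 0.14 over the 7, and only ND3 and ND4 stayed below 0. ND3 then had -0.22 (edgeR adjusted p = 0.822), and -0.33 on days 21 to 23 only (edgeR adjusted p = 0.784). With 1 lamb left out, 1 of 7 genes kept an unadjusted edgeR p below 0.05 only without Assaf 3, Assaf 4, Assaf 5, Churra 4 or Churra 6, and 0 of 7 did without each of the other 9 lambs. Among all genes, between 1518 of 13283 (without Churra 1) and 1827 of 13139 (without Assaf 3) had such a p. With 7 genes, 0 or 1 is close to that background in every run. The size of the breed values rested largely on Assaf 7. Without that lamb ND1 had -0.02, ND5 -0.03, ND2 -0.11, ND4 -0.14 and ND3 -0.51, and ND4L and ND6 turned to 0.13 and 0.06. Without Churra 6 the values were larger, at -0.51 for ND1 and -0.41 for ND6. Of the 6 other mitochondrial mRNAs, 0 of 6 passed for breed, and their log2 fold changes lay between -0.36 and -0.09.

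**Figure D3:**
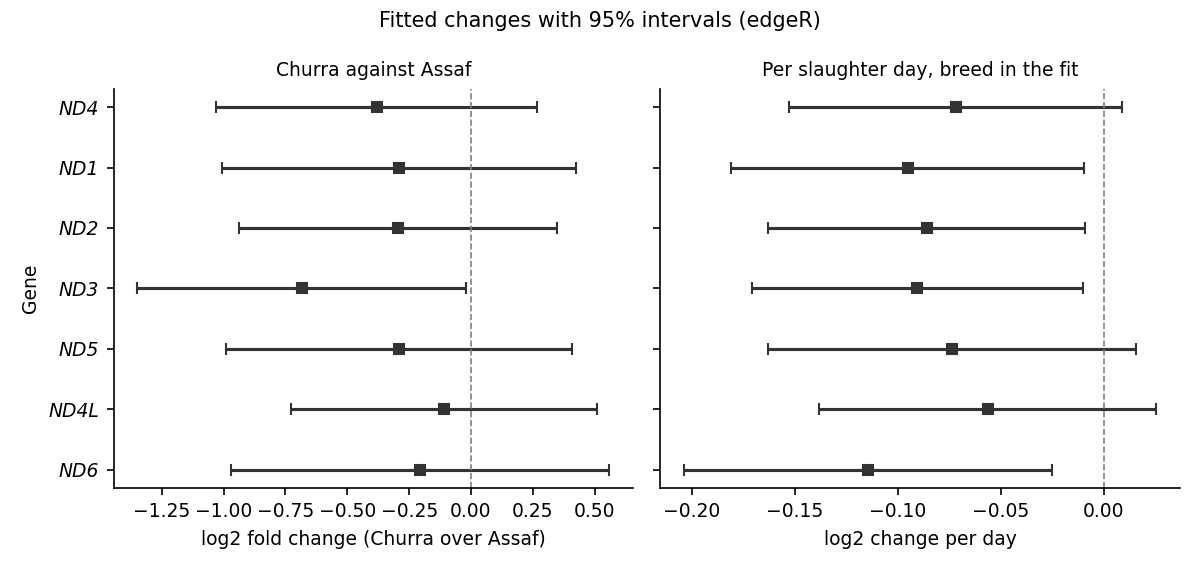
Fitted log2 fold change of Churra over Assaf (left) and fitted log2 change per slaughter day with breed in the fit (right) for each gene, as squares with 95% intervals from edgeR. All 14 squares lie below 0, and the interval excludes 0 for ND3 in the left panel and for ND1, ND2, ND3 and ND6 in the right one, before adjustment over all genes.

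The next question was whether the mRNAs changed with slaughter day within the breeds. The summed share of counts averaged 9.77% in the 2 Assaf lambs of days 17 and 18. On days 21 to 23 it averaged 8.95% in 6 Assaf lambs and 8.96% in 3 Churra lambs. On days 29 to 35 it averaged 6.85% in 3 Churra lambs, which had 8.64% on day 29, 6.47% on day 30 and 5.42% on day 35. The spread among lambs of days 21 to 23 was as large as these steps, since Assaf 3 with 5.09% and Assaf 7 with 14.0% both fall there.

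**Figure D4:**
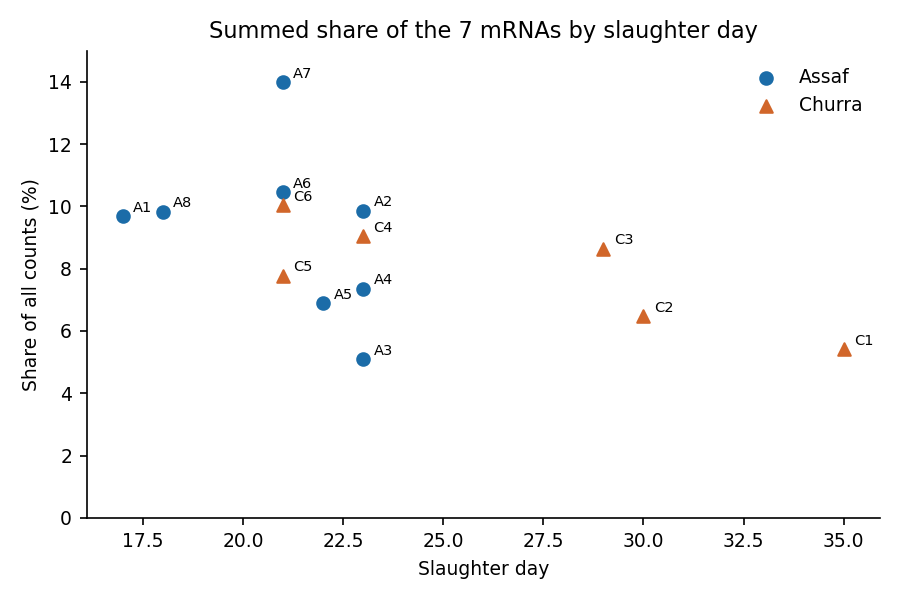
Summed share of the 7 mRNAs in all counts (percent) against slaughter day, 1 point per lamb, with Assaf as circles and Churra as triangles, labelled by breed initial and replicate number. The 3 Churra lambs after day 23 have 5.42% to 8.64%, while lambs of days 21 to 23 span 5.09% to 14.0%.

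In the fit with breed and day, all 7 slopes were below 0, with a median of -0.09 log2 units per day (all genes had a median of 0.00, with 49.1% below 0). No slope passed the adjusted threshold (0 of 7, against 0.0% of all genes in edgeR, and 0 of 7 against 1.18% in DESeq2). Before adjustment, 4 of 7 had an edgeR p below 0.05, against 16.3% of all genes and 8.94% for slopes below 0, and 5 of 7 had one in DESeq2, against 17.7%. Because the 7 rise and fall together across the lambs, they are not 7 separate results. The steepest slope was that of ND6, -0.11 ± 0.04 per day (SE, 95% interval -0.20 to -0.03, unadjusted p = 0.0156, edgeR adjusted p = 0.240), which is 2.21-fold lower over 10 days. ND1 had -0.10 ± 0.04, ND3 -0.09 ± 0.04 and ND2 -0.09 ± 0.04 per day (edgeR adjusted p 0.267 to 0.269), or 1.93-fold, 1.87-fold and 1.81-fold lower over 10 days. ND5, ND4 and ND4L had -0.07, -0.07 and -0.06 per day (edgeR adjusted p 0.358 to 0.467).

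The slopes kept their direction and much of their size with any 1 lamb left out, from -0.13 to -0.10 per day for ND6 and from -0.11 to -0.08 for ND1, while the unadjusted p-values moved across 0.05. The 4 genes with such a p became 0 of 7 without Churra 1, the lamb of day 35, 2 of 7 without each of Churra 2, Churra 4 and Churra 6, and 6 of 7 without Assaf 7. The number was still 4 of 7 without each of the other 9 lambs. The background moved as well. Among all genes, 1741 of 13283 had such a p without Churra 1, 1570 of 13281 without Churra 2 and 1987 of 13293 without Churra 4. The number was 1178 of 13302 without Churra 6 and 2444 of 13188 without Assaf 7, against 2156 of 13197 with all lambs. In the runs without each of the other 9 lambs it lay between 1886 of 13171 (without Assaf 8) and 2584 of 13154 (without Assaf 1). On log2(TPM + 0.5), fitted with limma-trend, all 7 slopes were again below 0 and smaller, with a median of -0.05 per day. The median of all genes on that scale was 0.03 per day, against 0.00 in the fit of counts. Fitted in Churra lambs only, ND6 had -0.11 ± 0.03 per day (edgeR adjusted p = 0.137) and ND1 -0.09 ± 0.03 (edgeR adjusted p = 0.152). Fitted in Assaf lambs only, over days 17 to 23, ND6 had -0.14 ± 0.11 (SE, edgeR adjusted p = 0.991) and ND1 -0.10 ± 0.11 (edgeR adjusted p = 0.991). The slopes of the breeds did not differ beyond their error in an interaction test, where 0 of 7 genes passed (against 0.0% of all genes in edgeR and 0.0303% in DESeq2). Before adjustment, 0 of 7 had a p below 0.05 in edgeR (against 4.2%, with 2.32% below 0) and in DESeq2 (against 4.58%). The fitted interaction was below 0 in 1 of 7, ND4L, against 49.8% of all genes. The interaction for ND6 was 0.04 ± 0.11 per day (SE, 95% interval -0.21 to 0.28, edgeR adjusted p = 0.9996). The 6 other mitochondrial mRNAs had slopes between -0.10 and -0.07 per day, and 0 of 6 passed.

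Taken relative to each other within a lamb, the 7 mRNAs kept similar proportions. Over all 14 lambs, where breed and day were partly confounded, the breed means differed most in ND3 and ND4L. ND4 made up 31.1 ± 1.57% of the summed TPM of the 7, ND1 20.9 ± 1.86%, ND2 18.0 ± 1.18%, ND3 12.9 ± 2.36%, ND5 8.23 ± 0.751%, ND4L 7.87 ± 1.23% and ND6 1.05 ± 0.157% (SD, n = 14). The share of ND3 was 14.2 ± 2.02% in Assaf and 11.2 ± 1.66% in Churra, and 5 of 8 Assaf lambs exceeded every Churra lamb in it. The share of ND4L was 7.29 ± 0.970% in Assaf and 8.65 ± 1.15% in Churra.

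For a test, each gene's TPM was set against the summed TPM of the other complex I genes without ND6, and the log2 ratios were compared between breeds by exact permutation over all 3003 splits, two-sided. This was planned for ND6 alone and extended to the other 6 genes after their values had been seen. Each of the 7 genes was tested on all lambs and again on days 21 to 23. None of these p-values is adjusted for the number of tests. ND6 did not differ beyond the spread (Churra minus Assaf 0.14, exact permutation p = 0.246). On the shared days 21 to 23, with 6 Assaf and 3 Churra lambs, its ratio was higher in Churra by 0.32 (exact permutation p = 0.0476, where the smallest possible p is 0.0119). ND3 was lower in Churra by 0.39 on the log2 scale (-2.98 ± 0.25 against -2.59 ± 0.24, SD, exact permutation p = 0.0150), and the difference was -0.31 on the shared days (exact permutation p = 0.131). Leaving out any 1 lamb kept the ND3 difference between -0.44 and -0.32. ND4L was higher in Churra by 0.27 (exact permutation p = 0.0336) and, on the shared days, by 0.13 (exact permutation p = 0.0357). Its share of the read pool was also higher in Churra, as given above, and with the pool summed the difference was 0.11 (exact permutation p = 0.120). Without Assaf 1, Assaf 8, Churra 1, Churra 3, Churra 4 or Churra 5, each left out singly, its exact permutation p was 0.0505 to 0.0925. ND1, ND2, ND4 and ND5 differed by -0.01 to 0.11, with exact permutation p of 0.163 to 0.805. On the shared days they differed by -0.08 (ND4) to 0.14 (ND1), with exact permutation p of 0.179 to 0.679. The largest differences on those days were thus those of ND6 and ND3, and that of ND1 was slightly above that of ND4L.

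**Figure D5:**
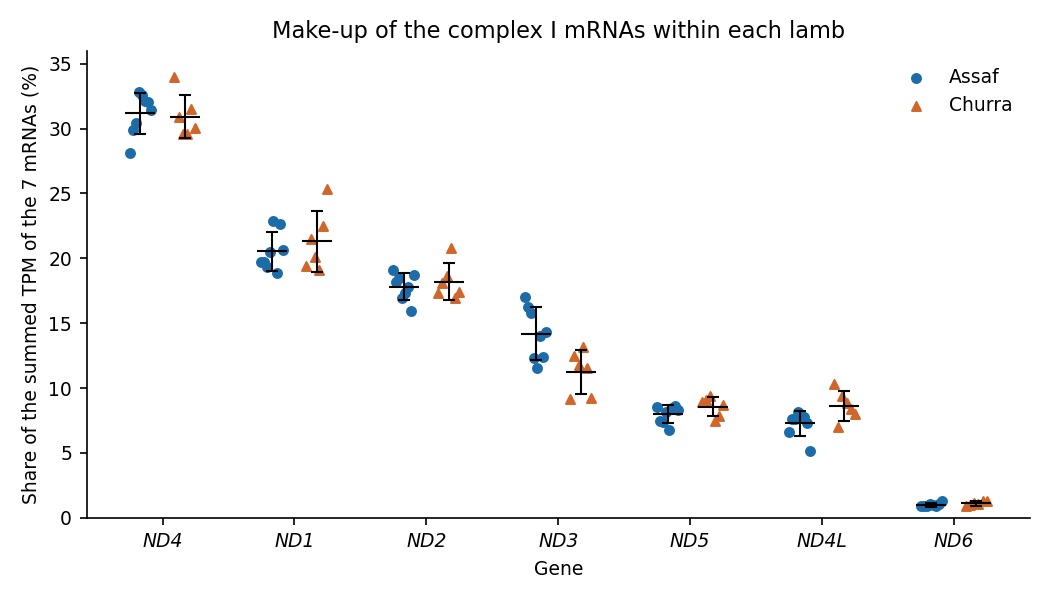
Share of each gene in the summed TPM of the 7 mRNAs (percent) in each lamb, with Assaf as circles and Churra as triangles, and black bars for breed mean ± SD. The breeds overlap in every gene. ND3 averages 14.2% in Assaf and 11.2% in Churra, and ND4L 7.29% and 8.65%.

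The genes whose pattern over the 14 lambs was most like that of the 7 were sought among the other 13190 genes, by Pearson's r between a gene's log2 CPM and the mean of the standardized values of the 7. The nearest were CYTB (r = 0.983, rho = 0.987), which encodes cytochrome b of complex III, ATP8 (r = 0.982, rho = 0.982) and ATP6 (r = 0.978, rho = 0.960) of ATP synthase, and COX3 (r = 0.980, rho = 0.969) of complex IV. ENSOARG00000005798, which shares reads with ND4L, was at rank 5 (r = 0.971, rho = 0.934). Without Assaf 3 and Assaf 7, the lambs farthest from the median, these 5 values of r were between 0.937 and 0.968. The lower-ranked genes that follow are given for comparison and were picked after their values were seen. COX2 was at rank 7 (r = 0.961) and COX1 at rank 17 (r = 0.914). At rank 6 stood ENSOARG00000026272 (r = 0.961, rho = 0.956), a gene outside the mitochondrial IDs at 24.3 TPM. These values are a description, as the genes were ranked by them and share libraries and scaling.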

How the data were processed

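Perirenal fat RNA of 14 lambs was sequenced, with 1 table per lamb. FastQC, STAR 2.4.0 and RSEM 1.3.0 are named in the submitters' processing notes, without role or order. The authors deposited estimated counts (expected counts, not normalized), TPM (scaled by effective length to the same total per lamb), lengths and the posterior deviation of each count, per the file headers. For trimming, filters and strand setting, nothing is recorded in the labels. The gene set, lists and tests were chosen with earlier results of these data known. Lambs were numbered in accession order. Each sample is a separate lamb, so p-values measure the spread between lambs.

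Estimated counts were rounded, filtered with filterByExpr by breed and scaled by TMM. Breed, day (with breed) and their interaction were tested by the quasi-likelihood F test (robust, two-sided) of edgeR 4.0.16 under R 4.3.3, and p-values were adjusted by Benjamini-Hochberg over all 13197 genes. Standard errors are the absolute log2 fold change (or slope) over the square root of F. Alternatives used limma 3.58.1 on log2(TPM + 0.5), log2(TPM + 1) and voom weights, DESeq2 1.42.0, other scalings, filters, terms and lambs. The scripts were tested on simulated data. All 7 genes were to be named, and of the genes most like them the 5 with the highest r, of which at most 2 IDs outside the mitochondrial ones. The planned lists of nuclear genes and tissue markers could not be used, because 0 IDs matched a symbol through an Ensembl ID.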

Additional observations from a re-analysis of the deposited data

Results flagged for a closer look

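In 1 of 34 group comparisons of single lambs, a lamb lay far outside its group by Dixon's criterion, which chance meets in about 1 in 20 groups. In Assaf 8, ND4L had 25.8% of the summed counts of ND4L and ENSOARG00000005798. The cause was not tested.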

How the results depend on the processing

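No gene of the 7 passed the adjusted threshold under any alternative run for breed, slaughter day or their interaction, leaving out each lamb included. The smallest adjusted p was 0.231 for breed (ND3, edgeR), 0.0874 for day (ND6, DESeq2) and 0.786 for the interaction (ND6, edgeR). Among all genes, the number called for breed ran from 0 (without Churra 4 or Churra 6) to 371 of 13197 (DESeq2). For day it ran from 0 to 4796 of 13197, the latter when scaled to the 13 mitochondrial mRNAs. For the interaction it ran from 0 to 4 of 13197 (DESeq2). With slaughter day added, the breed value turned to 0.17 for ND1, 0.14 for ND2, 0.17 for ND4L, 0.10 for ND5 and 0.35 for ND6, and on days 21 to 23 only to 0.0539 for ND1, 0.0563 for ND2, 0.0732 for ND4L and 0.23 for ND6. ND4L also turned to 0.0832 with limma-trend on log2(TPM + 0.5) and 0.0832 on log2(TPM + 1), scales that moved the median of all genes to 0.10 and 0.09. The rest of the 7 stayed below 0 there, on log2(TPM + 0.5) between -0.51 (ND3) and -0.0332 (ND6). Scaled to the 13 mitochondrial mRNAs, chosen after seeing the data, the breed value was 0.14 for ND4L, 0.0011 for ND5 and 0.0355 for ND6 (median of all genes 0.14). It stayed below 0 for ND1 (-0.0468), ND2 (-0.0635), ND3 (-0.447) and ND4 (-0.108). The day slope in that scaling was 0.0122 for ND4, 0.0266 for ND4L and 0.00897 for ND5, with -0.0095 for ND1, -0.0031 for ND2, -0.0104 for ND3 and -0.0304 for ND6 left below 0 (median of all genes 0.0887). The 7 genes are part of the total used for this scaling, so it cannot show a change that the 13 mRNAs share. On log2(TPM + 0.5) the day slopes were also smaller, at -0.0580 for ND1, -0.0502 for ND2, -0.0572 for ND3, -0.0364 for ND4, -0.0210 for ND4L, -0.0394 for ND5 and -0.0791 for ND6, and those on log2(TPM + 1) were alike. These scales moved the median day slope of all genes to 0.0335 and 0.0299. With 1 lamb left out, the breed value lay between -0.51 and -0.0159 for ND1, -0.41 and -0.11 for ND2, -0.81 and -0.51 for ND3, -0.51 and -0.14 for ND4, -0.22 and 0.13 for ND4L, -0.44 and -0.0293 for ND5 and -0.41 and 0.0631 for ND6, each nearest to or above 0 without Assaf 7. The interaction then lay between -0.0556 and 0.12 (ND1), -0.0116 and 0.12 (ND2), -0.0033 and 0.10 (ND3), -0.0401 and 0.13 (ND4), -0.0908 and 0.0403 (ND4L) and -0.0246 and 0.18 (ND6). The within-lamb ratio by breed lay between -0.00097 and 0.10 (ND1), -0.0097 and 0.0621 (ND2) and -0.0541 and 0.0039 (ND4). The ND6 ratio became 0.32 on days 21 to 23 (exact permutation p = 0.0476) and lay between 0.08 and 0.20 with 1 lamb left out. Of the steps in the order of levels, ND3 over ND5 turned to -0.14 per annotated length, and ND5 over ND4L to -1.51 with the ND4L read pool summed. What lies behind these shifts was not tested. No paired analysis was possible because the replicate numbers follow accession order and pair no lambs.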
